A study of Mus musculus with 10 samples.

Results

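This account covers Zfp57 and 49 further genes of genomic imprinting, and their RNA levels in mouse 4T1 mammary tumours. The members were chosen by name from a list of 50 symbols that was drawn up with results of the same KO against WT contrast known. Of the 50, 44 had a row in the deposited table of 18047 genes, and all 44 passed the minimum mean of 10 normalized counts, as did 17975 genes in all. No gene in that table had fewer than 101 reads in total over the 10 libraries, so nearly every row was bound to pass. Usp29, Dlk1, Nespas, Snurf, Magel2 and Zdbf2 were not analysed here. The 44 comprise 3 regulators (Zfp57, Trim28 and Zfp445), 11 maternally expressed genes, 19 paternally expressed genes, 10 genes whose imprinting depends on tissue or isoform, and Herc3, which was given no class.

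KO tumours grew from 4T1 cells with a gene knocked out, and WT tumours grew from 4T1 cells with that gene intact. 4T1 is a mammary carcinoma line of BALB/c origin. Both groups, 5 libraries each (KO1 to KO5 and WT1 to WT5), come from tumours that grew in BALB/c mice over 3 weeks before frozen sections were taken for RNA. The sources used here do not say whether the knockout cells are 1 clone, and the mice are not described as edited, so host cells in KO tumours may carry the intact gene. Nothing in the labels says that the libraries of a group came from separate animals, so every p-value measures the spread between these libraries only.

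Imprinted genes are expressed mainly from the allele inherited from the mother or mainly from the allele inherited from the father. The choice is marked by DNA methylation, laid down in the germ line at imprinting control regions. ZFP57 is a KRAB zinc finger protein that binds its recognition hexamer when the CpG in it is methylated, and through TRIM28 it recruits the enzymes that keep the mark while the rest of the embryonic genome is demethylated. ZFP445 shares this task. In adult tissues many imprinted genes are low and a few growth regulators stay on. RNA counts do not separate the parental alleles, so maternal and paternal below name the allele known from textbooks, and a level says nothing about the allele it came from.

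The promoter windows below show the start of Zfp57 and of Asb4, the members whose KO and WT libraries did not overlap, beside Meg3 and Nap1l5, imprinted genes whose window holds the ZFP57 hexamer. Each runs from 250 bases before to 50 bases after a RefSeq start, 5′ to 3′ on the gene's strand, in GRCm38.p6. Capitals mark TGCCGC or its other strand, GCGGCA. The windows lie at chr17:37000913-37001212 (Zfp57, plus strand), chr6:5383136-5383435 (Asb4, plus strand), chr12:109540746-109541045 (Meg3, plus strand) and chr6:58907077-58907376 (Nap1l5, minus strand).
Zfp57: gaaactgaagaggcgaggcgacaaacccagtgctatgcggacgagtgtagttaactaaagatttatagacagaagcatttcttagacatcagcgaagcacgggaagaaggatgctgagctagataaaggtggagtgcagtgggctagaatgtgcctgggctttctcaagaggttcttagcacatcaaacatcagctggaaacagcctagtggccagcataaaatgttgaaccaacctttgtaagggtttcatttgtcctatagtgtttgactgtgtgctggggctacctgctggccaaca
Asb4: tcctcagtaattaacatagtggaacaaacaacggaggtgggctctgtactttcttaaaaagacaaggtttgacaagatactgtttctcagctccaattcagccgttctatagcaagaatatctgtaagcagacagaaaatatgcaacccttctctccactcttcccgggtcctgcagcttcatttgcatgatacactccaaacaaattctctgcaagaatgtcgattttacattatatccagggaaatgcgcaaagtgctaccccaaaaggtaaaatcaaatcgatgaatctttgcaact
Meg3: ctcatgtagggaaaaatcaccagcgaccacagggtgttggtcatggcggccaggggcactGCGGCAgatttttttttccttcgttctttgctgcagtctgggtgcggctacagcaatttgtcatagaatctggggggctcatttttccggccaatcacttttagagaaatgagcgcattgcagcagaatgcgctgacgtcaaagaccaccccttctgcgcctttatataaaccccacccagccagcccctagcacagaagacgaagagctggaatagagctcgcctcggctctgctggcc
Nap1l5: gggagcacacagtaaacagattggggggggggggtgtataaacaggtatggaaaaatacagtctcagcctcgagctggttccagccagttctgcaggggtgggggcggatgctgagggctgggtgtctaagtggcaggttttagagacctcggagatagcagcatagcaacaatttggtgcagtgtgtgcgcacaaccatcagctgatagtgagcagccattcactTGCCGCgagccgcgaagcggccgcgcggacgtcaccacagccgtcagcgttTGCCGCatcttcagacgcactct

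The windows of Zfp57 and Asb4 held 0 copies of the hexamer and 6 CpG each, the Meg3 window 1 copy and 13 CpG, and the Nap1l5 window 2 copies and 17 CpG. A RefSeq window was found for 36 of the 44 members. In the window nearest the annotated start, 10 of the 36 (27.8%) held the hexamer on either strand, against 3813 of 32851 windows of the same length over all genes (11.6%). The members have 1 window per gene there, whereas the background counts every window. Counted per gene over any window, the hexamer was held by 13 of 36 members (36.1%) and 3527 of 27025 genes (13.1%). The 10 include the regulator Trim28 and Plagl1, whose RefSeq starts lie 25038 and 30328 bases from the annotated start. The median number of CpG was 13 in the members' windows and 7 in all windows. Imprinting control regions can lie far from these starts, and a match of 6 letters is a description, not a binding site.

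Depth was 8609756 to 16066866 reads in the KO libraries and 11772430 to 19934428 reads in the WT libraries. Markers of carcinoma cells (8 of 8 tested) were lower in KO. Their mean log2 level was 8.85 to 9.77 in KO and 9.83 to 11.1 in WT libraries, without overlap, and fewer carcinoma cells and less RNA per cell cannot be told apart in bulk tissue. Because this score follows genotype, a difference fitted with it as a covariate cannot be cleanly separated from the score itself. Keratinocyte markers had mean log2 levels of 1.38 to 2.35 in KO and 2.35 to 9.55 in WT, and WT2, WT3 and WT5 held the high values, with Krt1 at 0 in the other 7 libraries. Skeletal muscle markers spanned 2.40 to 8.81 in KO and 2.23 to 12.996 in WT, with WT2 highest. The library names of KO5, WT1, WT2, WT3 and WT4 carry the prefix RESUB, whose meaning is not given, so the prefix and the genotype largely coincide. WT2 and WT5 share the library number 170, and the labels do not say whether they are 1 tumour; if they are, each WT SD and SE below counts that tumour as 2 libraries. With the pair averaged, the log2 difference was 1.54 (SE 0.21) for Zfp57 and -0.97 (SE 0.22) for Asb4.

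Zfp57 was the member with the widest separation between the groups. It had 126, 176, 125, 135 and 137 normalized counts in KO1 to KO5, against 49.9, 51.0, 36.9, 43.4 and 73.1 in WT1 to WT5. Every KO library lay above every WT library, with KO2 highest and WT3 lowest. KO libraries averaged 139.8 ± 21.1 and WT libraries 50.9 ± 13.7 (SD over 5 libraries each), and the log2 difference of KO minus WT was 1.47 (SE 0.22). The gene (ENSMUSG00000036036) lies at chr17:37001163-37010635 on the plus strand of GRCm38. Since the members were drawn up from this contrast, the separation is a description and carries no test. Among the 5 libraries without the RESUB prefix, where WT5 is the only WT library, the log2 difference was 0.92 (SE 0.33), and among the 5 with it, where KO5 is the only KO library, 1.59 (SE 0.48). With the carcinoma score as a covariate it was 1.07 (SE 0.31).

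The partners of ZFP57 showed no such separation. Trim28, the corepressor that ZFP57 recruits, had 1618, 1993, 1999, 1939 and 1309 normalized counts in KO1 to KO5, against 1493, 1189, 1690.5, 2997 and 1556 in WT1 to WT5. The groups overlapped widely, WT4 being the highest library of the 10, and the log2 difference was 0.04 (SE 0.24). Zfp445 had 1562, 1426, 1440, 1175 and 971 in KO libraries, against 1425, 711, 1379, 1184 and 1518 in WT libraries (log2 difference 0.11, SE 0.22). Here too the ranges overlapped, with WT2 lowest. Per kilobase of exon, Zfp57 averaged 25.2 normalized counts over the 10 libraries, against 428 for Trim28 and 173 for Zfp445, so the gene that separated the groups was the least abundant of the 3 regulators on that scale.

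**Figure D1:**
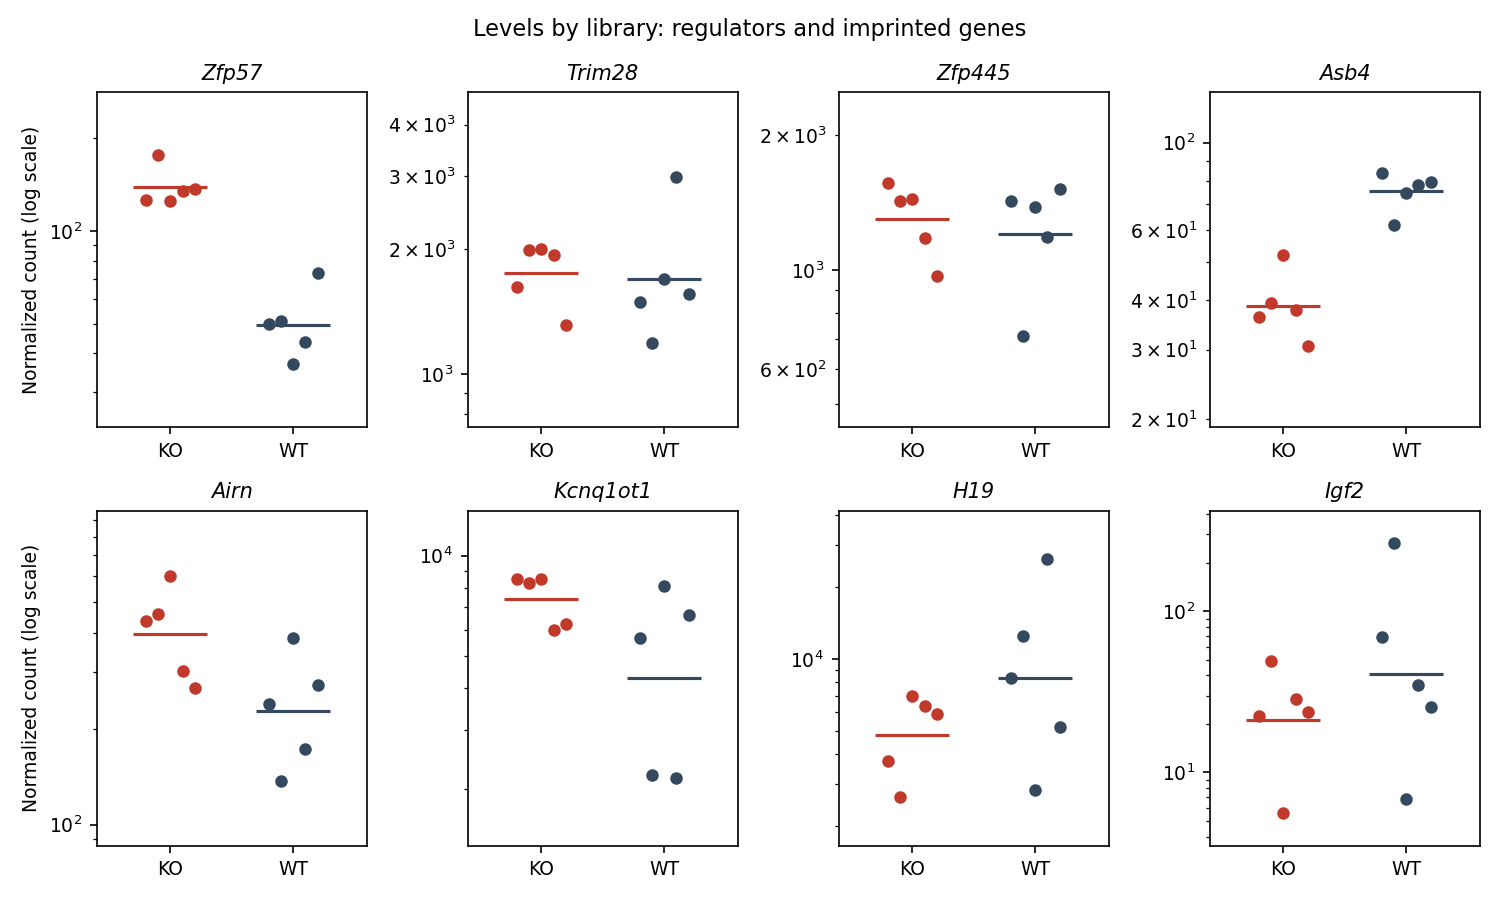
Normalized counts (log scale) of 8 members in the 5 KO and 5 WT libraries, with each point a library and each line the geometric mean of its group. Zfp57 lies higher and Asb4 lower in every KO library than in any WT library, while the other 6 genes overlap.

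Other genes that write, read or erase the imprint were listed with Zfp57 in mind: DNA methyltransferases, their cofactor Uhrf1, the H3K9 methyltransferase Setdb1, Tet enzymes, heterochromatin proteins and Polycomb subunits. Of 37 listed, 30 were tested, 13 of them higher and 17 lower in KO, with a median log2 difference of -0.04. Limma and DESeq2 each called 0 of the 30 at an adjusted p under 0.05, and in limma 0 had an unadjusted p under 0.05 in either direction. Over all 17975 genes, limma called 0.00556% and DESeq2 0.673%. At the unadjusted limma threshold, 2.82% of all genes were higher and 3.67% lower in KO. A count of 0 among 30 genes therefore says little about this list. Dnmt1, the maintenance methyltransferase, averaged 1447 ± 368 normalized counts over the KO libraries and 1950.1 ± 715 over the WT libraries (SD over 5 libraries each), a log2 difference of -0.39 (SE 0.27). Uhrf1 averaged 925 ± 179 in KO and 1242 ± 375 in WT (log2 difference -0.40, SE 0.22). Setdb1 differed by 0.07 (SE 0.22) on the log2 scale.

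Across all 17975 genes, limma called 1 gene at an adjusted p under 0.05 (0.00556%), and edgeR on the recovered reads also called 1 (0.00556%), neither of them a member. DESeq2 called 121 genes (0.673%), of which Zfp57 and Asb4 are members. Libraries of the groups did not overlap, with KO higher, in 123 genes (0.684%), of which Zfp57 is the 1 member. They did not overlap, with KO lower, in 132 genes (0.734%), of which Asb4 is the 1 member. An absolute log2 difference of at least 1 was reached by 736 genes (4.09%) and by 2 members, Zfp57 and Zim1. At an unadjusted limma p under 0.05, 507 genes (2.82%) were higher in KO, among them the members Zfp57, Airn and Kcnq1ot1, and 659 (3.67%) were lower, among them Asb4. Because these comparisons share the contrast from which the members were drawn up, nothing is read from the counts.

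Asb4 was the only member with lower values in every KO library. It encodes an ankyrin repeat protein with a SOCS box and is maternally expressed. It lies in the cluster of Peg10 and Sgce on proximal chromosome 6 (chr6:5383386-5433022, plus strand), with Ppp1r9a between it and that pair. Its normalized counts were 36.4, 39.4, 52.0, 37.8 and 30.6 in KO1 to KO5, against 83.9, 61.9, 74.8, 78.2 and 79.8 in WT1 to WT5. The highest KO library (KO3) stayed below the lowest WT library (WT2), and both groups were tight. KO libraries averaged 39.2 ± 7.89 and WT libraries 75.7 ± 8.38 (SD over 5 libraries each), with a log2 difference of -0.94 (SE 0.21). It was -0.73 (SE 0.33) with the carcinoma score as a covariate and -0.94 (SE 0.40) among the libraries without the RESUB prefix. The other members of that cluster did not share the separation: log2 differences were -0.19 for Peg10, 0.18 for Sgce and 0.02 for Ppp1r9a, with overlapping libraries.

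Genes beside Zfp57 and Asb4 were examined for the same separation. Within 500 kb of Zfp57, 15 tested genes had log2 differences of -0.78 to 1.00 (median 0.14), 10 higher and 5 lower in KO, and 0 of the 15 had groups that did not overlap. The gene with the highest value was the ubiquitin-like gene Ubd. Within 500 kb of Asb4, 8 tested genes had differences of -0.54 to 0.34 (median 0.005), 4 higher and 4 lower, again with 0 of 8 that did not overlap. Peg10 and Sgce lie outside that window. Over all 17975 tested genes, the groups did not overlap in 0.684% with KO higher and in 0.734% with KO lower. A count of 0 among so few neighbours therefore says little about either locus.

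The H19 and Igf2 domain on distal chromosome 7 held the most abundant member. H19, a maternally expressed noncoding RNA, had the highest level per kilobase of exon of the 44, at 3281 normalized counts averaged over the 10 libraries. It had 3755, 2652, 7033, 6344 and 5917 normalized counts in KO1 to KO5, against 8338, 12501, 2822, 26174 and 5184 in WT1 to WT5. WT4, WT2 and WT1 lay above every KO library, while WT3 and WT5 lay inside the KO range. The log2 difference was -0.78 (SE 0.50), and it was -0.37 (SE 0.42) without WT4, -1.61 (SE 0.51) without WT2, WT3 and WT5, and 0.23 (SE 0.69) with the carcinoma score as a covariate.

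Igf2, the paternally expressed growth factor that competes with H19 for shared enhancers, was scarce in these tumours, at 9.23 normalized counts per kilobase. Its normalized counts were 22.4, 48.8, 5.62, 28.6 and 23.6 in KO1 to KO5, against 69.0, 263, 6.80, 34.8 and 25.5 in WT1 to WT5. The ranges overlapped, and WT2 stood far above the other libraries. The log2 difference of -0.92 (SE 0.79) was -0.26 (SE 0.64) without WT2, the library with the highest skeletal muscle score, and -0.07 (SE 0.38) with that score as a covariate. It was larger under other alternatives, at -1.53 (SE 0.68) without WT3, -1.61 with edgeR, -1.63 with DESeq2 and -2.28 (SE 1.12) with the carcinoma score as a covariate. Without KO3 it was -0.48 (SE 0.78). Igf2 shares 3596 exonic bases with the annotated gene Gm49394, so its reads cannot be assigned with certainty.

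Igf2r, the maternally expressed receptor that clears IGF2, and Airn, the paternally expressed antisense RNA that silences it in cis, form a domain on proximal chromosome 17. Igf2r had the third highest level of the members per kilobase (492 normalized counts). It had 7421, 3537, 5915, 3407 and 1446 normalized counts in KO1 to KO5, against 3767, 1290, 4639, 7853 and 6534 in WT1 to WT5, a log2 difference of -0.12 (SE 0.50). KO5 and WT2 were lowest and the groups overlapped throughout. Airn had 436, 456, 603, 302 and 269 in KO libraries, against 239, 138, 385, 172.3 and 275 in WT libraries. KO1, KO2 and KO3 lay above every WT library, but KO4 and KO5 lay within the WT range, and the log2 difference was 0.80 (SE 0.29). It was 0.49 (SE 0.35) with the RESUB prefix as a fitted term and 0.31 (SE 0.57) among the libraries with that prefix.

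Kcnq1ot1, the long paternally expressed antisense RNA of the Kcnq1 domain on distal chromosome 7, differed much as Airn did. It had 8522, 8300, 8543, 5993 and 6237 normalized counts in KO1 to KO5, against 5670, 2198, 8137, 2158 and 6646 in WT1 to WT5. WT2 and WT4 lay far below the other 8 libraries, while WT1, WT3 and WT5 lay close to or within the KO range. The log2 difference was 0.79 (SE 0.36), and it was 0.55 (SE 0.33) without WT2, 0.54 (SE 0.34) without WT4 and 0.22 (SE 0.31) among the libraries without the RESUB prefix.

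The abundant nuclear RNA Malat1 varied with both across the libraries. Malat1 had 150606, 119027, 158415, 92395 and 85362 normalized counts in KO1 to KO5, against 97331, 64444, 150707, 59313 and 111080 in WT1 to WT5 (log2 difference 0.37, SE 0.37). Over the 10 libraries, centred on the mean of their genotype, r was 0.95 (rho 0.90) for Airn with Malat1, 0.91 (rho 0.89) for Kcnq1ot1 with Malat1, 0.86 (rho 0.79) for Kcnq1ot1 with Neat1 and 0.86 (rho 0.83) for Kcnq1ot1 with Airn. These 4 pairs were picked after their values were seen, so r is given as a description without a p. Leaving out the 2 libraries farthest from the median gave r of 0.94, 0.87, 0.81 and 0.83 in the same order. With the mean log2 level of Malat1 and Neat1 as a covariate, also added after the values were seen, the log2 difference was 0.47 (SE 0.16) for Airn and 0.38 (SE 0.21) for Kcnq1ot1, against 1.47 (SE 0.22) for Zfp57 and -1.03 (SE 0.19) for Asb4.

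Point estimates for the genes that Kcnq1ot1 silences in cis were below 0 but within the spread of the libraries, and each had an alternative with the other sign. Cdkn1c, an inhibitor of cyclin-dependent kinases, had 4.19, 10.3, 4.22, 12.3 and 14.0 normalized counts in KO1 to KO5, against 5.82, 60.1, 4.85, 4.34 and 15.5 in WT1 to WT5 (log2 difference -0.36, SE 0.66). WT2 alone stood out, the other 9 libraries spanned 4.19 to 15.5, and without WT2 the difference was 0.23. Phlda2, which restrains placental growth, had 44.7, 30.9, 66.1, 59.3 and 70.7 in KO libraries, against 62.3, 141, 77.7, 114 and 42.1 in WT libraries, and the log2 difference was -0.61 (SE 0.34). WT2 and WT4, the libraries with the least Kcnq1ot1, had the most Phlda2, and among the libraries without the RESUB prefix the Phlda2 difference was 0.19. Log2 differences were -0.40 for the potassium channel gene Kcnq1 and -0.18 for the transporter gene Slc22a18. The Kcnq1 difference was 0.04 with the carcinoma score as a covariate and -0.15 without WT4. The Slc22a18 difference was 0.04 without WT3, 0.07 without WT4 and 0.74 among the libraries without the RESUB prefix. Kcnq1ot1 and Kcnq1 share 121 exonic bases on opposite strands, and the use of strand in counting is not stated.

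The distal chromosome 12 domain was represented by the maternally expressed noncoding RNAs Meg3, Rian and Mirg and by Rtl1, a paternally expressed gene derived from a retrotransposon. Meg3 had 438, 285, 426, 332 and 252 normalized counts in KO1 to KO5, against 628, 291, 294, 213 and 218 in WT1 to WT5 (log2 difference 0.17, SE 0.29). Rian had 717, 626, 544, 1051 and 815 in KO libraries, against 1374, 882, 261, 327 and 611 in WT libraries (0.34, SE 0.39). WT1 was the highest library for both genes, and the KO libraries lay inside the WT range. Mirg had 68.5, 80.7, 63.3, 65.4 and 77.7 in KO libraries, against 98.9, 76.5, 25.2, 31.1 and 44.3 in WT libraries (0.54, SE 0.34). Rtl1 had 36.4, 30.9, 43.6, 32.7 and 22.7 in KO libraries, against 73.1, 25.5, 18.4, 7.96 and 25.5 in WT libraries (0.45, SE 0.46). All 4 point estimates were above 0, though each gene's libraries overlapped, and the WT libraries spread more than the KO libraries for all 4 (SD of log2 levels 0.15 to 0.36 in KO and 0.63 to 1.09 in WT). Over the alternatives the difference ranged over -0.37 to 0.74 for Meg3, -0.08 to 0.66 for Rian and -0.03 to 0.84 for Rtl1. For Mirg the range was 0.04 to 0.79.

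Peg3 and Zim1 make up the domain on proximal chromosome 7. Peg3, a paternally expressed zinc finger gene, had 130, 167.9, 119.5, 92.0 and 43.7 normalized counts in KO1 to KO5, against 190, 98.4, 299, 94.8 and 126 in WT1 to WT5 (log2 difference -0.53, SE 0.39). KO5 was lowest and WT3 highest, and the Peg3 difference was -0.23 without KO5 and -0.27 without WT3. It was -0.02 among the libraries without the RESUB prefix and -1.78 among those with it. Zim1, its maternally expressed neighbour, had 9.79, 4.69, 15.5, 15.3 and 0.873 in KO libraries, against 24.1, 47.4, 5.83, 15.9 and 12.2 in WT libraries. The value of 0.873 in KO5 is a single read, and the log2 difference of -1.18 (SE 0.66) was -0.66 (SE 0.56) without it. Among the libraries without the RESUB prefix it was -0.22 (SE 0.67), and among those with it -3.37 (SE 1.09).

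Mest and Plagl1 are paternally expressed leads of their own domains. Mest, an enzyme of the hydrolase family, had 291, 421, 412, 315 and 488 normalized counts in KO1 to KO5, against 706, 291, 396, 507 and 285 in WT1 to WT5 (log2 difference -0.12, SE 0.26). The groups overlapped, with WT1 highest. Mest shares 912 exonic bases with Copg2 on the other strand, and the use of strand in counting is not stated. Plagl1, a zinc finger transcription factor, had 76.9, 95.7, 54.8, 162.5 and 48.9 in KO libraries, against 173, 137, 42.7, 78.9 and 168.4 in WT libraries (-0.41, SE 0.42).

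Snrpn, a splicing protein gene, leads the central chromosome 7 domain, whose human counterpart is lost in Prader-Willi syndrome. Its normalized counts were 30.8, 39.4, 18.3, 51.1 and 72.5 in KO1 to KO5, against 29.1, 86.5, 31.1, 38.4 and 42.1 in WT1 to WT5 (log2 difference -0.12, SE 0.39). KO3 was lowest and WT2 highest. Ndn, of the same domain, was likewise lowest in KO3 (14.1) and highest in WT2 (107), and its log2 difference was -0.54 (SE 0.48). Ube3a, expressed from the maternal allele in neurons, differed by 0.17 (SE 0.23) and shares 1803 exonic bases with Snhg14 on the other strand.

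Genes imprinted only in some tissues or isoforms had the narrowest range of differences of the 3 imprinted classes. All 10 had absolute log2 differences under 0.5, from -0.20 for Grb10 to 0.17 for Ube3a, with a median of -0.04. Their median SD within groups was also the smallest, at 0.416 on the log2 scale, against 0.745 (maternal) and 0.571 (paternal). They averaged 436 (Grb10) to 3371 (Ube3a) normalized counts. Averages were 13.6 (Cdkn1c) to 8072 (H19) for maternally and 11.4 (Rasgrf1) to 6240 (Kcnq1ot1) for paternally expressed genes. Whether level and spread account for the narrow range was not tested. Grb10, an adaptor that dampens insulin receptor signalling, had 249, 580, 240, 432 and 517 normalized counts in KO1 to KO5, against 749, 507, 219, 386 and 481 in WT1 to WT5 (SE 0.34). Gnas, which encodes the stimulatory G protein alpha subunit, had 1464, 1982, 1831, 1900 and 2339 in KO libraries, against 2011, 2824, 1895, 3787 and 1118 in WT libraries (log2 difference -0.19, SE 0.28). WT4 was the highest and WT5 the lowest Gnas library, so the KO libraries lay inside the WT range. On the other strand, Gnas shares 1469 exonic bases with Gm20721 and 988 with Nespas. Dcn, the collagen-binding proteoglycan decorin made by fibroblasts, had the second highest level per kilobase of the members (544 normalized counts). It had 1648, 2622, 1606, 5087 and 3655 in KO libraries, against 2900, 9178, 1279, 1526 and 2241 in WT libraries (0.03, SE 0.49).

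The remaining paternally expressed members had log2 differences of -0.41 (Peg12) to 0.48 (Nnat). Nnat, a small membrane protein gene, averaged 181 ± 59.0 normalized counts over the KO libraries and 129 ± 38.4 over the WT libraries (SD over 5 libraries each). Rasgrf1, an exchange factor for RAS, and Nap1l5 were nearest to the minimum mean of 10, with 11.4 and 11.5 normalized counts over the 10 libraries. Rasgrf1 had 22.4, 1.88, 11.2, 28.6 and 1.75 in KO1 to KO5, against 10.8, 10.9, 6.80, 10.1 and 9.97 in WT1 to WT5, and the value in KO2 and in KO5 stands for 2 reads. No member with a row lay below that mean.

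**Figure D2:**
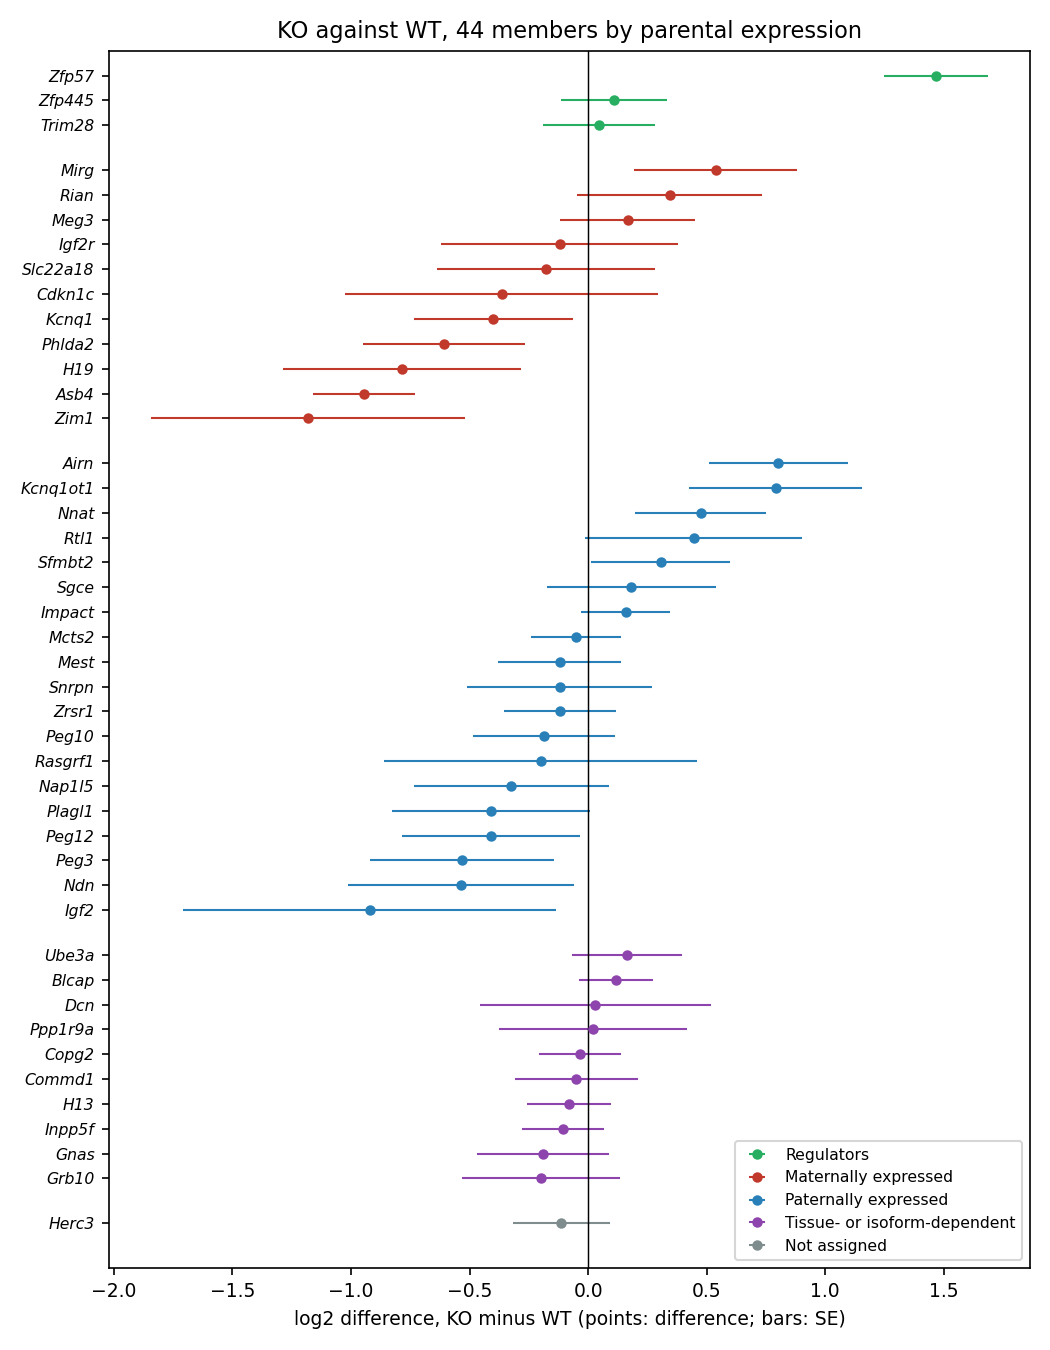
Log2 difference of KO minus WT (points) with its SE (bars) for the 44 members, grouped as regulators, maternally expressed, paternally expressed, tissue- or isoform-dependent, and not assigned. Zfp57 (1.47) and Asb4 (-0.94) lie farther from 0 for their SE than the others, and both parental classes spread on either side of 0.

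Maternally and paternally expressed genes did not part by genotype. Among the 11 maternally expressed genes, KO was higher in 3 and lower in 8, the median log2 difference being -0.36 over a range of -1.18 (Zim1) to 0.54 (Mirg). Among the 19 paternally expressed genes, KO was higher in 7 and lower in 12, the median being -0.12 over a range of -0.92 (Igf2) to 0.80 (Airn). The median deviation of the maternally expressed genes in a library lay between -0.28 and 0.15 in KO and between -0.22 and 0.53 in WT. For the paternally expressed genes it lay between -0.06 and 0.09 in KO and between -0.13 and 0.25 in WT. Both classes thus overlapped between the groups. The maternal median was -0.10 with the 9 tissue- or isoform-dependent genes of maternal expression added, and 0.04 with the carcinoma score as a covariate, while fitting the RESUB prefix moved the paternal median to 0.03.

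All 44 members had a median log2 difference of -0.11, with 17 higher and 27 lower (38.6% higher), against a median of -0.01 and 49.0% higher over all 17975 genes. The median absolute difference was 0.19 for the members and 0.20 for all genes, and the median SD within groups was 0.56 and 0.44 on the log2 scale. In 33 of 44 the absolute difference was under 0.5. Between the lowest and the highest of the 10 libraries, the level of a member differed by a median factor of 3.85.

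**Figure D3:**
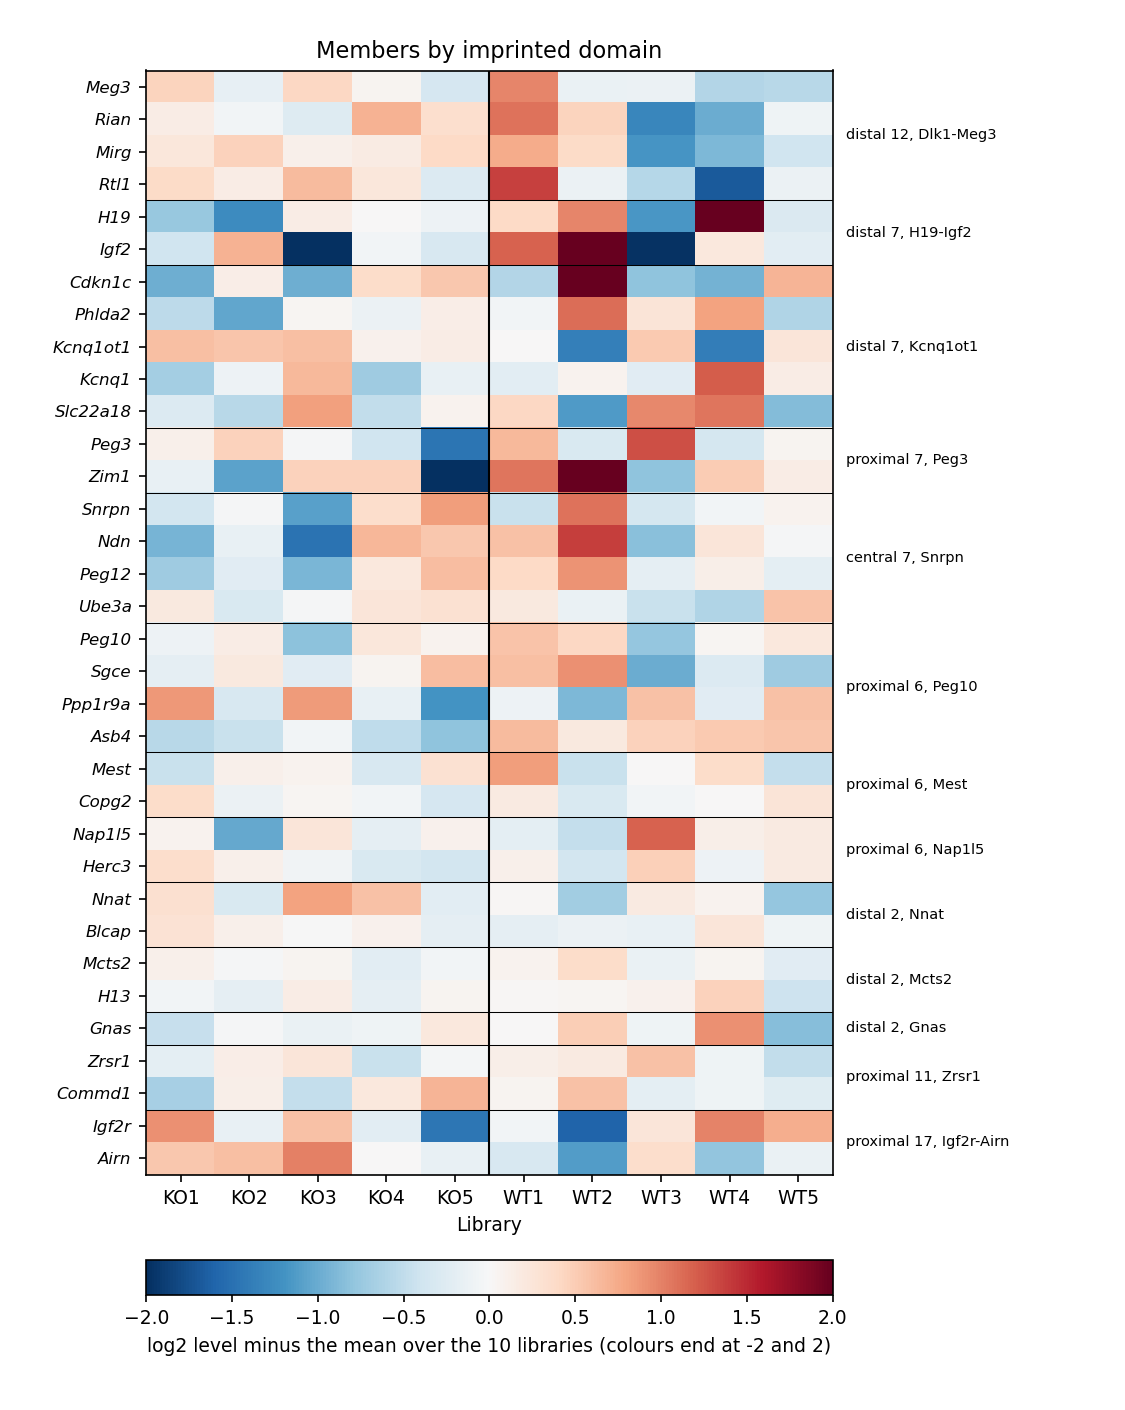
Log2 level of members placed in imprinted domains, each minus its mean over the 10 libraries (colour). Libraries are in columns, KO left of WT, and genes in rows by imprinted domain. Zfp57, Trim28 and Zfp445 are regulators and were given no imprinted domain. Asb4 changes colour at the border of the groups, whereas the chromosome 12 and Snrpn domains vary mainly between libraries of the same group.

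Genes of a shared domain were then compared library by library, after centring each gene on the mean of its genotype, which leaves the KO against WT contrast out. Of 21 pairs listed, 19 could be formed. In 3 of the 19 the correlation passed an adjusted p of 0.05 by a two-sided permutation test with 100000 random pairings and Benjamini-Hochberg adjustment over the 19, and all 3 were positive. Centred values have fewer degrees of freedom than the permutations count, so these p-values are somewhat too small. The share of pairs from different domains that would pass was not computed, so the count is not read as a trait of shared domains. Kcnq1ot1 and Airn, which lie on different chromosomes and were picked after their values were seen, had r = 0.86. Rian and Mirg, noncoding RNAs of the same parental allele, had r = 0.91 (rho 0.82, adjusted permutation p = 0.00912 for r and 0.0492 for rho). Meg3 and Rtl1, which are expressed from opposite alleles, had r = 0.85 (rho 0.78, adjusted permutation p = 0.0124 and 0.0492), but without WT1 alone r was 0.58 (adjusted permutation p = 0.314). Rtl1 shares exonic bases with microRNA genes on the other strand, Mir433 (124 bases) among them. The use of strand in counting is not stated, so some reads counted for Rtl1 may come from the other strand. Snrpn and Ndn, both paternally expressed, had r = 0.85 (rho 0.79, adjusted permutation p = 0.0153 and 0.0492), and the adjusted permutation p was 0.0578 without KO3, 0.0529 without WT2 and 0.0502 without KO5. Without KO5 that of Meg3 and Rtl1 was 0.0502 too, while Rian and Mirg passed with any 1 library left out.

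Without the 2 libraries farthest from the median of the gene named before the other, r was 0.74, 0.59 and 0.71 for these pairs, and 0 of the 19 pairs passed. The calls therefore did not hold without those libraries, and whether their values or the smaller number of libraries accounts for this was not tested. Too few libraries carry either form of the name, 5 with the RESUB prefix and 5 without, to give r within each. Meg3 with Rian (r = 0.50, rho 0.30, adjusted permutation p = 0.341) and Meg3 with Mirg (r = 0.53, rho 0.30, adjusted permutation p = 0.317) did not pass. Peg10 and Sgce, which share a promoter region on opposite strands, had r = 0.72 (rho 0.85, adjusted permutation p = 0.0808 for r and 0.0492 for rho).

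Kcnq1ot1 and Phlda2 had r = -0.73 (rho -0.70, adjusted permutation p = 0.0808), and this was the lowest r of the 19. Igf2r and its antisense RNA Airn had r = 0.61 (rho 0.53, adjusted permutation p = 0.201), and H19 and Igf2 had r = 0.31 (rho 0.20, adjusted permutation p = 0.602). The other 10 pairs lay between -0.43 and 0.44, with a lowest adjusted permutation p of 0.398. In all, 16 of the 19 were positive and 3 negative, and the same share over other pairs of genes was not computed.

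**Figure D4:**
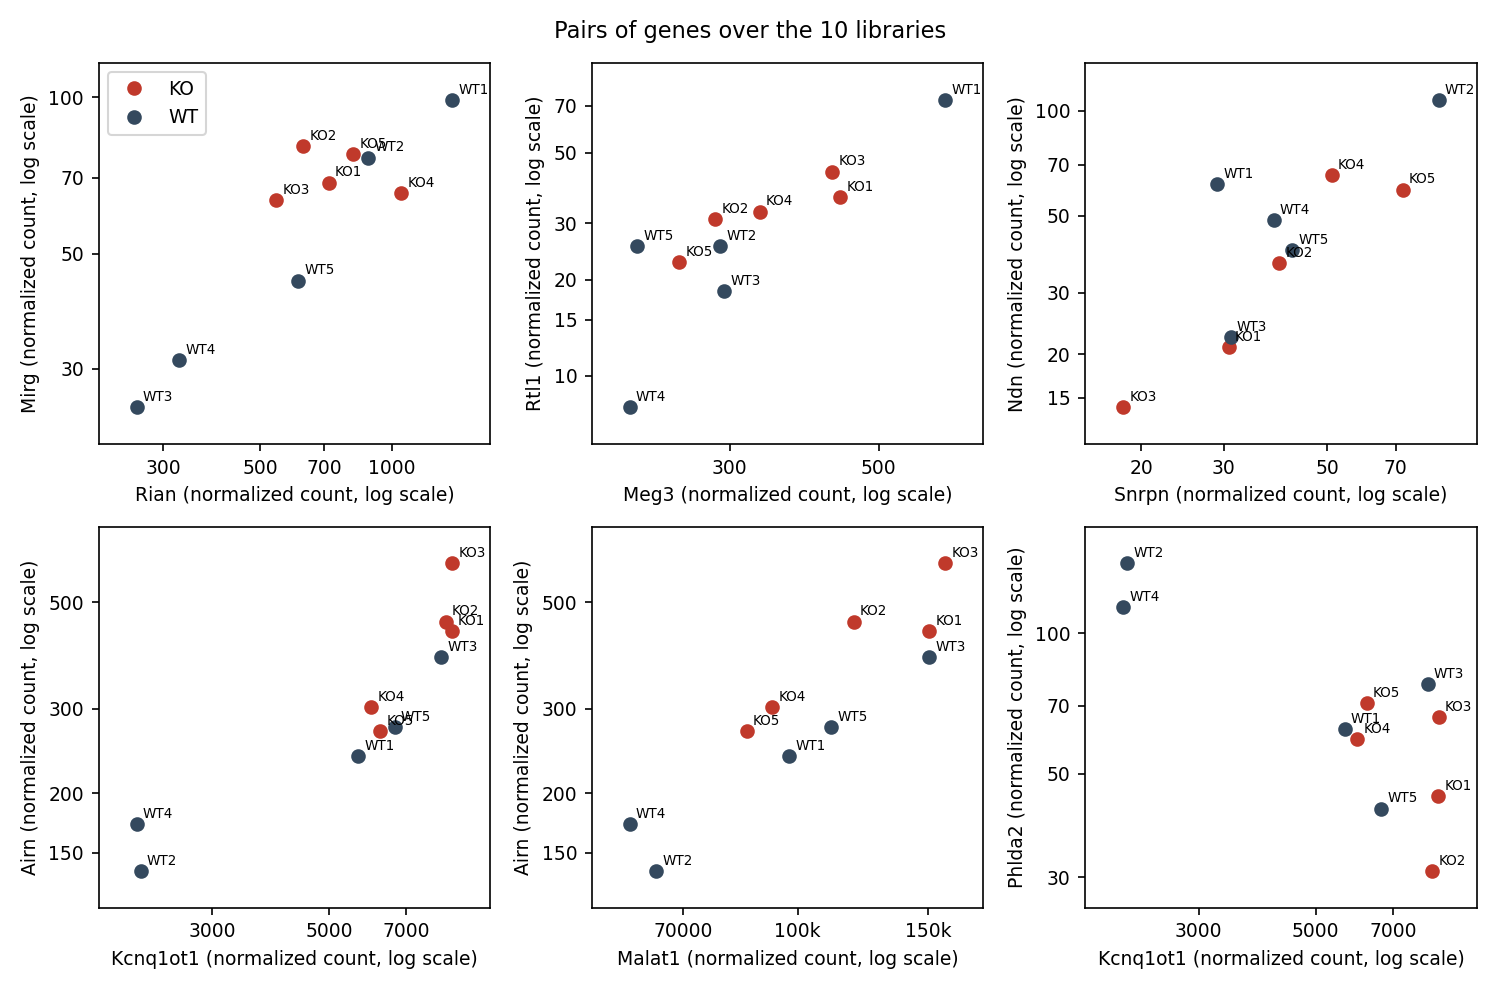
Normalized counts of 6 pairs of genes in the 10 libraries (both axes logarithmic, each point a labelled library, KO and WT in separate colours). Rian with Mirg (r = 0.91), Meg3 with Rtl1 (0.85), Snrpn with Ndn (0.85), Kcnq1ot1 with Airn (0.86) and Airn with Malat1 (0.95) rise together, and Phlda2 is highest in WT2 and WT4, where Kcnq1ot1 is lowest. Each r is of log2 levels centred on the mean of the genotype, whereas the counts drawn are not centred.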

How the data were processed

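Total RNA from frozen tumour sections was depleted of ribosomal RNA and sequenced, per the labels' protocols. The deposited table holds gene-level signal, read counts that the authors normalized. Divided by what 1 read is worth in its library, 100% of values were whole to within 0.0001, so whole reads were recovered. The tools named are bcl2fastq 2.17, with GRCm38 as genome, per the submitters' processing notes. Aligner, counter, strand and use of molecular identifiers are not given in the sources used here. Symbols came from GENCODE M21 and promoter windows from RefSeq. Counting precision follows the read totals per library.

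Genes with a mean of at least 10 were tested with limma 3.58.1 in R 4.3.3, with the trend option, on log2(normalized count + 1), which understates changes of low genes, with Benjamini-Hochberg adjustment over all of them at 0.05. edgeR 4.0.16 and DESeq2 1.42.0 on recovered reads, other filters, pseudocounts and scalings, each library left out, the replicate block, the RESUB prefix and marker scores were alternatives. Scripts were tested on simulated data, where DESeq2 was allowed a larger share of false calls than limma and edgeR. Members, classes, pairs and lists were chosen with earlier results of these data known. Every-library values are given for regulators, members without overlap or with an absolute log2 difference of at least 1, the 3 highest per kilobase, the leads of domains and those nearest the minimum mean. Airn, Rian, Mirg, Rtl1, Phlda2 and Malat1 were added after their values were seen. Of the members, 20 share exonic bases with another annotated gene. The check of the targeted gene is not reported here.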

Additional observations from a re-analysis of the deposited data

Results flagged for a closer look

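In 5 of the 88 groups of 5 libraries (44 members, KO and WT apart), the gap on the log2 scale between the most extreme library and its neighbour, divided by the range of the group, exceeded 0.71. Chance gives this in about 1 in 20 groups. Zfp57 had 176.3 normalized counts in KO2, the highest KO library. Impact, a regulator of translation, had 796.9 in KO1, the highest KO library. Kcnq1 had 154.2 in WT4 and Blcap had 658.9 in WT4, each the highest WT library. Rasgrf1 had 6.797 in WT3, the lowest WT library, which stands for 7 reads.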

How the results depend on the processing

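Zfp57 stayed higher (log2 difference 0.92 to 1.605) and Asb4 lower (-1.25 to -0.73) in KO over 27 alternatives. Of 44 members, 11 kept their sign under every alternative that gave a value (Zim1 had none at a minimum mean of 50), while 33 changed it in at least 1. The alternatives include the carcinoma score, which did not overlap between the groups. The count of all genes called, 1, was 121 with DESeq2, 52 in libraries without the RESUB prefix, 65 with the muscle score and 2 with the Malat1 and Neat1 score as a covariate (added after seeing the data). It was 0 in libraries with the prefix, with WT2 and WT5 averaged, without WT2, WT3 and WT5, and with the fibroblast or carcinoma score, and 0 to 3 with 1 library left out. The replicate block gave 1 as well. No pairing of libraries by replicate number was seen: same-numbered deviations correlated at -0.23 to 0.52 across genes, and 1 of 5 matched its own number best. With 5 libraries per group, this cannot exclude pairing. The members' median was -0.017 without the prefix, 0.041 with the carcinoma score, -0.013 with the Malat1 and Neat1 score, and -0.12 to -0.04 with 1 library left out. The maternal median was -0.68 without WT2, WT3 and WT5, 0.037 with the carcinoma score, -0.10 with dependent members, and -0.50 to -0.15 with 1 library left out. The paternal median was 0.033 with the prefix as a term and -0.16 to -0.05 with 1 library left out. Called pairs numbered 0 without the 2 farthest libraries, 1 without WT2, WT3 and WT5, and 1 to 5 with 1 library left out (1 without KO5, 5 without WT4). For Meg3 with Rian and with Mirg, r was -0.20 and -0.15 without the 2 farthest libraries, and with 1 library left out ranged over -0.10 to 0.61 and -0.068 to 0.65, below 0 without WT1. For H19 with Igf2 it ranged over -0.16 (without WT3) to 0.48 with 1 library left out and was -0.69 without WT2, WT3 and WT5. The cause of these shifts was not tested. Counts under about 20 reads limit Zim1, Cdkn1c, Nap1l5, Rasgrf1 and Peg12. They also occur in single libraries of other members. Among these, Igf2 had 4 reads in KO3 and 7 in WT3, and Rtl1 had 11 in WT4. In KO3, Snrpn had 13 reads and Ndn 10, so their difference and correlation rest partly on low counts.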
